A study of Mus musculus with 9 samples.

Results

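The genes described are those of the mitochondrial respiratory chain and ATP synthase in the mouse cochlea. They were chosen by name: every protein-coding gene whose symbol starts with Nduf, Uqcr, Atp5 or mt-, or with Cox followed by 4, 5, 6, 7 or 8, together with Sdha to Sdhd and Cycs. The rule finds 108 genes in the GENCODE M21 annotation, and 107 of them were measured among 51912 genes; the other is a second identifier for Atp5o. Of the 107 genes, 94 are encoded in the nucleus, on 19 chromosomes, and 13 in the mitochondrial genome. RNA came from cochleae of mice at postnatal day 3, with 3 libraries each of Pou4f3(+/+) wildtype littermates (WT), Pou4f3(Δ/+) (HET) and Pou4f3(Δ/Δ) (HOM). The Pou4f3 protein is a hair cell transcription factor, and the sources used here do not describe the Δ allele further. Groups were taken from the sample titles. The genotype field of all 9 samples contradicts its title, so the direction of each comparison rests on the titles. No promoter, Cre or pooling of animals is named in the sources used here.

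The respiratory chain passes electrons from NADH and succinate to oxygen through complexes I to IV and pumps protons across the inner mitochondrial membrane, and ATP synthase (complex V) uses the proton gradient to make ATP. Complexes I, III, IV and V are built from subunits of both genomes, so their assembly needs transcripts made in the nucleus and transcripts made inside the mitochondrion, while complex II and cytochrome c are wholly nuclear. Hair cells and the ion-transporting epithelium of the lateral wall are known for a high demand for ATP.

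Several members share long stretches of sequence with gene copies elsewhere in the genome. A fragment from such a stretch fits both places, so the level of the gene then depends on how the counting treated it, which the sources used here do not give. The stretches shown next are 60 bases of mt-Co3, a subunit of complex IV, with its copy Gm28437 on chromosome 1 (bases 101 to 160 of each), and 60 coding bases of Atp5l, subunit g of ATP synthase, with its processed pseudogene Gm10221 (bases 206 to 265 and 125 to 184). They are shown since the levels of these 2 members cannot be read without them. Both come from GENCODE M21 transcripts.
mt-Co3: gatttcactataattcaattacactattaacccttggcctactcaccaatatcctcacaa
Gm28437: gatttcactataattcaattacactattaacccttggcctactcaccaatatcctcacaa
Atp5l: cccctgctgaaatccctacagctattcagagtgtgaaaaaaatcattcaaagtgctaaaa
Gm10221: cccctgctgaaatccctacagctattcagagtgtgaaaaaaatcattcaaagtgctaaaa

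The mt-Co3 stretch lies in an identical run of 783 bases, out of 784 in the gene. Its copy is part of a block of 7 unprocessed pseudogenes at chr1:24611535-24616197 (4663 bases, GRCm38). The bases that mt genes share with these copies run from base 6394 to base 11042 of the mitochondrial genome. Only annotated transcripts were compared, so the sequence between the copies was not. mt-Co2 and its copy Gm28661 share a run of 681 of 684 bases. In mt-Nd4 the run covers the first 876 of 1378 bases, and in mt-Co1 the last 479 of 1545. The Atp5l stretch lies in an identical run of 309 bases, which is the whole length of Gm10221.

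A promoter motif bound by NRF1, a regulator of respiratory chain genes, was found in a minority of the nuclear members, at a higher share than over all protein-coding genes. The motif, the letters GCGC, any base and TGCGC in a row, was searched on both strands in RefSeq windows of 250 bases before and 50 bases after the start of each gene (GRCm38.p6). It stood in the windows of 19 of the 77 nuclear members with a window (24.7%), against 1254 of 17492 protein-coding genes (7.2%) and 4.6% of all 32851 windows. These background shares were not matched for the base composition of the promoters. The 19 are 7 subunits and 2 assembly factors of complex I, 2 genes of complex II, 1 each of complexes III and IV, and 6 of complex V. The 60 bases around the motif are shown for Ndufa11, an accessory subunit of complex I (chr17:56717677-56717736, + strand), Sdhd, a membrane anchor of complex II (chr9:50603894-50603953, - strand), and Atp5k, subunit e of ATP synthase (chr5:108434415-108434474, - strand), with the motif in capitals, which starts 60, 79 and 50 bases before the RefSeq start. They are given as one example for each of the 3 complexes. In Sdhd the capitals hold the motif as read on the opposite strand. A match of letters is a description and no site.
Ndufa11: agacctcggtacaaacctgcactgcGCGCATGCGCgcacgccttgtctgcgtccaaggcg
Sdhd: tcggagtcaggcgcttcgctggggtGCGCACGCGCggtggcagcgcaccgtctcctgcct
Atp5k: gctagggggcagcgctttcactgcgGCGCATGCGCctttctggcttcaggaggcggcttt

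Values are FPKM, fragment numbers normalised to exon length and sequencing depth. In short genes they fit a length of all annotated exon bases. Where that length far exceeds the transcripts made, FPKM would understate a gene beside others. Atp5l, for example, has 6443 annotated exon bases and a longest coding transcript of 544. Levels are compared between genes with this limit. Library depth, recovered from the steps between low values, was 14566564 to 17404253 fragments in WT and HET. Hair cell genes were present in each WT and HET library, with Pou4f3 at 24.49 to 26.97 FPKM in WT and 21.74 to 25.56 in HET, against 5.92, 1.36 and 9.39 in the 3 HOM libraries. HET replicate 1 and WT replicate 3 (called HET 1 and WT 3) stood apart from the other 4 libraries. On the leading principal component over all genes tested, which holds 58.1% of the variance, they lay at 32.7 and 27.4, and the others between -22.4 and -4.3. Results that rest on these libraries are given with and without them.

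Transcripts of the mitochondrial genome were the most abundant members, and their levels fell into 2 ranges 1 order of magnitude or more apart. mt-Co1, the catalytic subunit of cytochrome c oxidase, was the highest at 3723.80, 3838.48 and 4576.47 FPKM in WT 1 to 3 and 5304.30, 3425.09 and 3626.23 in HET 1 to 3. mt-Cytb, the cytochrome b of complex III, stood at 3269.77, 3382.80 and 4230.98 in WT and 4659.23, 2941.16 and 2998.95 in HET. mt-Nd1, the complex I subunit beside the ubiquinone site, stood at 2716.69, 2826.08 and 3538.89 in WT and 4112.27, 2433.45 and 2565.97 in HET. In all 3 genes HET 1 was the highest library and WT 3 the next, and the 2 other HET libraries lay below every WT library.

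Next came genes for the proton-pumping membrane arm of complex I. mt-Nd2 was at 1340.95, 1317.82 and 1810.13 FPKM in WT and 1769.11, 1073.90 and 1144.45 in HET. mt-Nd4 was at 1135.57, 1232.40 and 1734.77 in WT and 1942.89, 1023.12 and 1048.17 in HET. The highest libraries were again HET 1 and WT 3. mt-Nd6, the member encoded on the opposite strand of the mitochondrial genome from the other 12, was at 721.87, 729.64 and 1155.76 in WT and 1111.71, 642.42 and 645.69 in HET. It had the same pattern as the genes of the other strand. mt-Nd5 did not: it was at 1366.91, 1318.24 and 1570.19 FPKM in WT and 1272.25, 1341.49 and 1356.94 in HET, with HET 1 the lowest of the 6 libraries.

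The other 6 genes were listed at much lower levels. mt-Co2, which takes electrons from cytochrome c, was at 40.11, 47.17 and 66.11 FPKM in WT and 69.13, 45.19 and 45.14 in HET. mt-Co3 was at 17.76, 16.81 and 26.56 in WT and 26.41, 12.17 and 13.29 in HET, and mt-Atp6, the membrane subunit of ATP synthase through which protons pass, at 11.04, 9.78 and 18.54 and at 18.08, 10.72 and 9.26. mt-Nd3 and mt-Nd4l, small subunits of complex I, ranged from 2.17 to 5.81 and from 3.90 to 6.01 over the 6 libraries. Of all stretches of 100 bases in these 5 genes, 97.6% to 99.9% also occur in a transcript of another gene. Their mean levels were 3.63 to 52.1 FPKM, against 834.5 to 4082.4 for 7 genes with a smaller shared part: none for mt-Nd1, mt-Nd5, mt-Nd6 and mt-Cytb, 3.2% for mt-Nd2, 30.8% for mt-Co1 and 60.8% for mt-Nd4. The low values of the 5 genes are thus those of sequences that are nearly all shared, and whether the RNA is scarce was not tested. mt-Atp8, a small ATP synthase subunit, was at 7.20, 8.75 and 7.78 in WT and 8.41, 4.51 and 6.94 in HET. None of its stretches occurs in an annotated copy. It lies between the first and last mitochondrial bases shared with the chromosome 1 copies, and it shares 21.1% of its bases with mt-Atp6.

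The copies on chromosome 1 were also listed with values. Gm28437, the copy of mt-Co3, was at 13.28, 14.82 and 18.66 FPKM in WT and 33.56, 10.2 and 10.35 in HET. Gm28661, the copy of mt-Co2, was at 11.13, 10.79 and 17.28 in WT and 21.32, 10.29 and 11.24 in HET, so both were highest in HET 1 and WT 3 like the mitochondrial genes. Gm28438, the copy of mt-Nd3, was at 44.45, 27.26 and 17.63 in WT and 27.7, 37.3 and 26.47 in HET and thus above mt-Nd3 in each library, with another order of libraries.

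**Figure D1:**
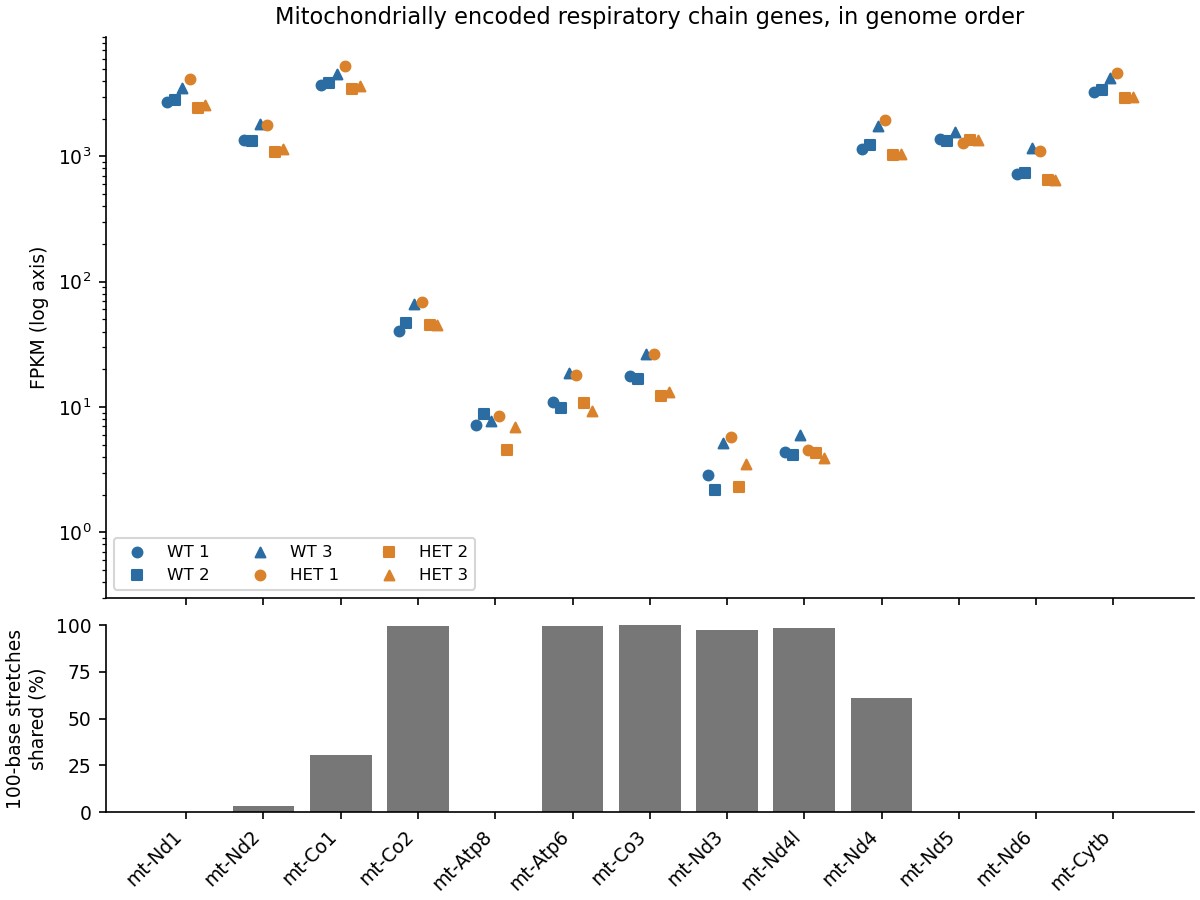
FPKM (log axis) of the 13 mitochondrially encoded genes in each WT and HET library, in genome order, above the percentage of each gene's 100-base stretches found in a transcript of another gene. The 5 genes with 97.6% to 99.9% shared have mean levels of 3.63 to 52.1 FPKM; mt-Atp8, with 0%, is also low.

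Nuclear members spanned a wide range of levels. Subunits of complex I (36 genes) had means of 0.02 to 98.28 FPKM over the 6 libraries, with a median of 27.6. Complex II (4 genes) had 24.9 to 71.1 (median 42.6), complex III (8 genes) 0.643 to 89.7 (median 63.7), complex IV (20 genes) 0 to 345.3 (median 26.8) and complex V (17 genes) 4.68 to 198.6 (median 37.8). The 8 Nduf-named assembly factors, which help to build complex I and are not part of it, were lower, at 5.22 to 17.4 FPKM (median 10.3). The summed complex I subunits came to 1070.6, 1158.0 and 1347.6 FPKM in WT and 1473.3, 1089.9 and 1071.4 in HET, and the summed complex V subunits to 871.9, 910.1 and 1036.2 in WT and 1119.0, 861.6 and 825.5 in HET. For both complexes the 2 highest sums were those of HET 1 and WT 3, and the groups overlapped. Summed complex IV subunits came to 1245.1, 1319.8 and 1519.4 FPKM in WT and 1708.3, 1121.3 and 1064.8 in HET. Summed complex III subunits came to 399.7, 442.0 and 500.4 in WT and 593.9, 411.1 and 394.8 in HET. The 2 highest sums were again those of HET 1 and WT 3. In complexes IV and V both other HET sums lay below every WT sum, in complex III only that of HET 3 did, and in complex I neither. Complex II was narrower, with 178.6, 174.4 and 189.5 in WT and 203.5, 175.6 and 164.9 in HET, as were the assembly factors of complex I at 74.7 to 93.4 in WT and 77.3 to 94.9 in HET.

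The highest nuclear member was Cox8a, the widely expressed form of a small complex IV subunit, on chromosome 19 (7215153 to 7217616 in GRCm38). It was at 346.25, 370.97 and 409.49 FPKM in WT and 446.39, 253.97 and 245.01 in HET. HET 1 was above all WT libraries and the other HET libraries below all of them, for a change of -0.31 (SE 0.24, limma adjusted p = 0.9998). This and every later change is HET minus WT on the log2(FPKM + 1) scale, which understates the change of low genes. Atp5a1, the catalytic-head alpha subunit of ATP synthase, varied least among these leading genes, with 195.80, 195.97 and 214.72 FPKM in WT and 212.51, 188.48 and 184.30 in HET. Ndufa6, an accessory subunit of complex I, was at 88.86, 101.51 and 119.46 in WT and 119.98, 83.72 and 76.15 in HET, and again the top libraries were HET 1 and WT 3. Uqcrh, the hinge protein of complex III, was at 73.85, 84.25 and 98.22 in WT and 122.25, 77.52 and 82.21 in HET.

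Other abundant subunits of complex IV had the same top libraries as Cox8a. Cox4i1, the largest nuclear subunit of the complex, was at 172.27, 174.33 and 198.32 FPKM in WT and 220.93, 148.87 and 135.16 in HET. Cox6a1 was at 175.16, 187.96 and 229.67 in WT and 237.67, 158.70 and 156.77 in HET, and Cox6b1, on the side of the enzyme that faces cytochrome c, at 119.57, 128.00 and 150.32 and at 181.41, 105.09 and 104.02. In each of the 3 genes HET 2 and HET 3 were below all WT libraries and HET 1 above them. Cox7a2l differed in its order of libraries and ranged from 99.36 to 156.57 FPKM; its processed pseudogene Gm6969, with which it shares part of its stretches, ranged from 7.73 to 165.81.

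In complex II, Sdhd stood at 67.63, 67.15 and 81.57 FPKM in WT and 86.03, 65.67 and 58.47 in HET. Sdhb, the iron-sulfur subunit, stood at 31.83, 31.46 and 36.29 in WT and 42.73, 32.72 and 32.26 in HET. Sdha, the flavoprotein that oxidises succinate, stood at 53.03, 52.61 and 48.47 in WT and 48.60, 51.97 and 48.67 in HET, which makes it the only tested member with HET 1 and WT 3 as the 2 lowest libraries, an order found in 25.2% of all genes tested. Cycs, the electron carrier between complexes III and IV, was low at 1.95, 1.69 and 3.09 in WT and 2.93, 1.89 and 2.29 in HET. Of its stretches 24.7% are shared. On length-scaled values Gm10053, a gene annotated as protein-coding, was above it in all 6 libraries at 4.15 to 6.52 FPKM. Cycs has 3404 annotated exon bases, and which gene holds more fragments was not tested.

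Shared sequence touched nuclear members too. At least 5% of stretches were shared in 23 of them and none in 61. Of 21 with a measured partner, the partner had the higher FPKM of the pair in all 6 libraries for 5: Ndufa12, Ndufs3, Atp5g1, Atp5l and Cycs. Both strands were compared, so a partner is not always a copy elsewhere. Some partners are neighbours that overlap the member: Tssk6 for Ndufa13, Mrpl47 for Ndufb5, Smim27 for Ndufb6 and Pdzd9 for Uqcrc2. The same holds for Emc8 with Cox4i1, Gm26631 with Cox5a and Wdr77 with Atp5f1. FPKM is scaled to exon length, so a higher partner need not hold more fragments. Atp5l, for example, has 6443 annotated exon bases and Gm10221 has 309. Atp5l was at 4.82, 4.49 and 4.66 FPKM in WT and 5.25, 4.72 and 4.15 in HET, while Gm10221 was at 49.81, 55.10 and 66.53 and at 80.87, 44.44 and 41.63. The partner has the order of libraries seen in most members, and Atp5l has a narrow range. Ndufs3, a core subunit of complex I, was listed at 0.03, 0.03 and 0.06 in WT and at 0 in HET, with 19.9% of its stretches shared. Uqcrc1, a core subunit of complex III, was listed at 0.45 to 0.86 FPKM with no shared stretch, against 50.65 to 64.75 for its partner in the complex, Uqcrc2. Why these 2 core subunits were listed so low was not tested.

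Isoforms known from other tissues were low or listed at 0. Cox6a2, of heart and skeletal muscle, and Cox8c, of testis, were listed at 0 in all 6 libraries. The other muscle isoform Cox8b reached 0.54 FPKM at most and the testis isoform Cox7b2 0.24. Cox4i2, known from lung and from the response to low oxygen, stood at 8.87 to 14.35 FPKM, next to Cox4i1 at 135.16 to 220.93. Cox6b2, known from testis, stood at 5.04 to 10.95 next to Cox6b1 at 104.02 to 181.41. Ndufa4l2, known for its rise in low oxygen, reached 3.38 at most, in WT 3. In each of these pairs of complex IV isoforms the widely expressed form was the higher in every library.

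The comparison of HET with WT asks whether loss of 1 normal Pou4f3 allele goes with another level of respiratory chain RNA. No member was called: 0 of 101 tested members passed an adjusted p of 0.05 in limma, as did 0.0% of the 15391 genes tested. The 101 are members that reached 1 FPKM in 3 libraries or more, 88 nuclear and 13 mitochondrial; Ndufs3, Uqcrc1, Cox6a2, Cox7b2, Cox8b and Cox8c were too low. At an unadjusted limma p under 0.05 there were 1 higher and 1 lower member, beside 266 of all genes tested (1.73%). In no tested member did all 3 HET libraries lie above all 3 WT libraries, which held for 2.82% of the genes tested, or below them, which held for 3.12%. A change in whole cochlea could come from fewer cells of a type or from less RNA per cell, and these cannot be told apart.

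The medians lay near 0 in both genomes. The median change was 0.00 over nuclear members (45 positive and 43 negative, from -0.47 to 0.55), -0.07 over mitochondrial members (3 positive and 10 negative, from -0.28 to 0.14) and 0.00 over all genes tested. By complex the nuclear medians were 0.01 for complex I, -0.01 for its assembly factors, 0.02 for complex II, 0.00 for complex III, -0.02 for complex IV and 0.01 for complex V. The data do not show that the groups are alike: the median SE of a member was 0.18, and its 95% interval lay within 1 log2 unit of 0 in 99 of 101 members, the widest bounds being -1.02 and 1.05.

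The largest changes were in complex IV. Cox7a1, the isoform of a small subunit in heart and skeletal muscle, was at 3.29, 3.08 and 2.84 FPKM in WT and 6.07, 3.22 and 6.01 in HET. HET 2 lay within the WT range, and the change was 0.55 (SE 0.21, limma unadjusted p = 0.0375, adjusted p = 0.9998). Of 16 skeletal muscle markers 4 passed the filter, and 0 were at 0 throughout. Their summed level was 18.62, 18.14 and 16.19 FPKM in WT and 18.98, 20.51 and 19.56 in HET. All HET sums lay above all WT sums, the direction of Cox7a1, though by little. The highest sum was that of HET 2, where Cox7a1 was lowest among the HET libraries. The median change of the 4 tested markers was 0.07. Des (5.25 to 7.26 FPKM) was above Cox7a1 in each library, Tnnt1 (3.05 to 4.53) was near it, and the fibre genes Ckm, Myh3 and Acta1 reached 0.05, 0.04 and 0.24 at most. The part of muscle tissue in the Cox7a1 values was not tested. Cox7c, another small subunit, was at 27.43, 27.98 and 18.76 in WT and 19.50, 18.59 and 14.33 in HET. Its change was -0.47 (SE 0.18, limma unadjusted p = 0.0410, adjusted p = 0.9998), with WT 3 inside the HET range.

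Elsewhere the largest changes were smaller, and none passed the test. In complex I they were 0.27 for Ndufs5, an accessory subunit, and -0.19 for mt-Nd2. Ndufs5 was at 9.91, 18.36 and 20.75 FPKM in WT and 14.81, 22.31 and 20.79 in HET. Its processed pseudogene BC002163, with which it shares 12.7% of its stretches, was at 60.78, 43.47 and 46.0 in WT and 88.13, 29.36 and 14.32 in HET, a different order of libraries. Among assembly factors Ndufaf6 had 0.11 and Ndufaf8 -0.09, in complex II Sdhb had 0.10 and Sdhd -0.05, and in complex III Uqcrh had 0.12 and mt-Cytb -0.06. In complex V the extremes were Atp5s, a coupling factor of ATP synthase, with 0.16, and mt-Atp8 with -0.26. For each of these genes the WT and HET values overlapped. Several of these signs rest on 1 library. Ndufs5 had -0.04 without WT 1, and Sdhb -0.03 and Uqcrh -0.09 without HET 1. mt-Cytb had 0.05 and Sdhd 0.04 without WT 3, mt-Cytb had 0.05 without HET 2, and without HET 3 Sdhd had 0.06, mt-Cytb 0.04 and Ndufaf8 0.02. Without both HET 1 and WT 3, Ndufs5 had 0.63, mt-Atp8 -0.43, mt-Nd2 -0.26, Uqcrh 0.02 and Sdhb 0.04.

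**Figure D2:**
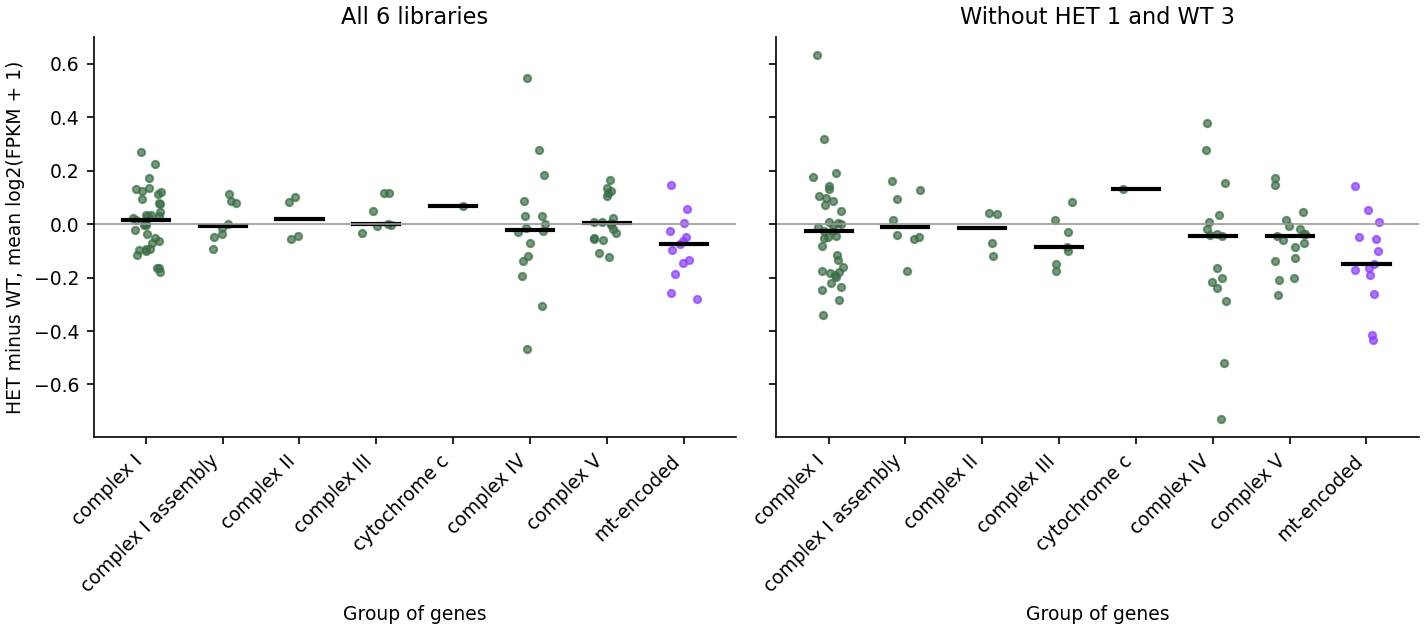
Change of each tested member, HET minus WT in mean log2(FPKM + 1), by complex, with all 6 libraries (left) and without HET 1 and WT 3 (right); each point is a gene, bars are medians and mt-encoded genes of all complexes stand together. With all libraries the nuclear medians lie between -0.02 and 0.07; on the right the mitochondrial median is -0.15.

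Most members shared an order of libraries that did not follow genotype. HET 1 and WT 3 were the 2 highest of the 6 libraries in 84 of 101 members (83.2%), in 73 of 88 nuclear (83.0%) and 11 of 13 mitochondrial ones (84.6%). Over all genes tested this held for 31.4%. In the nuclear groups the count was 30 of 35 for complex I, 7 of 8 for its assembly factors, 2 of 4 for complex II, 6 of 7 for complex III, 12 of 16 for complex IV, 15 of 17 for complex V, and Cycs. The 17 members without this order were mt-Nd5, mt-Atp8, Ndufa12, Ndufb4, Ndufc2, Ndufs1, Ndufs5, Ndufaf1, Sdha, Sdhc, Uqcrc2, Cox7a1, Cox7a2l, Cox7c, Ndufa4l2, Atp5g2 and Atp5l.

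In HET 1 the median nuclear member was 0.42 log2 units above the mean of HET 2 and 3, the median mitochondrial member 0.67 and the median of all genes 0.03. In WT 3 the medians above WT 1 and 2 were 0.27, 0.45 and 0.05. The shift was thus larger for mitochondrial than for nuclear members in both libraries, and it cut across genotype. Members with the NRF1 motif had it in 14 of 18 tested genes (77.8%), members without it in 48 of 55 (87.3%).

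**Figure D3:**
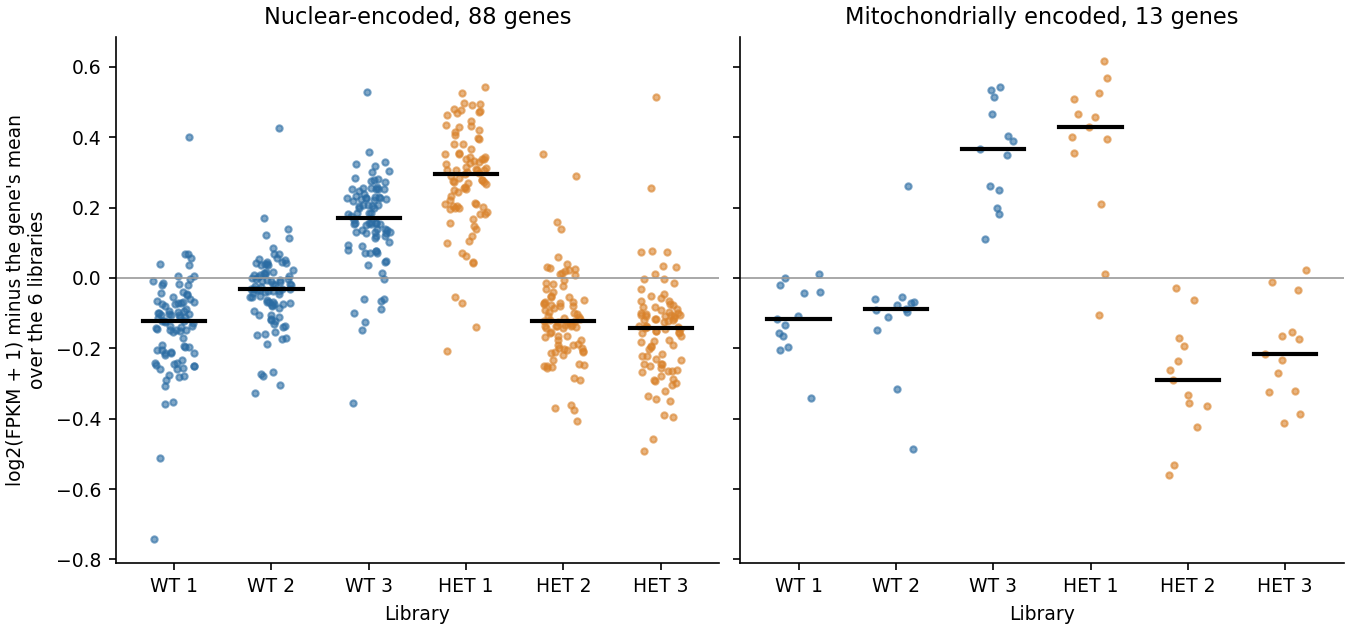
log2(FPKM + 1) of each tested member in each library, minus the gene's mean over the 6 libraries, for 88 nuclear (left) and 13 mitochondrial genes (right); bars are medians. The points of WT 3 and HET 1 lie mostly above 0 in both panels, and those of HET 2 and HET 3 mostly below.

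HET 1 and WT 3 were more often the 2 highest libraries among short genes than among all genes tested (31.4%). Several sums of cell type markers had the same top libraries, though single markers often did not. Nuclear members are short, with a median of 1631 exon bases against 4486 for the protein-coding genes tested. Among 886 protein-coding genes of at most 1500 exon bases, 60.4% had HET 1 and WT 3 on top. Only 40 of the 88 tested nuclear members are that short, so this share is no length-matched background for all of them. Genes of the cytosolic ribosome had it in 70 of 87 (80.5%), those of the mitochondrial ribosome in 58 of 77 (75.3%). The summed level of 10 spiral ganglion neuron markers was 130.7, 168.2 and 188.1 FPKM in WT and 184.1, 152.4 and 148.7 in HET, with 6 of 9 tested markers highest in these libraries and none at 0 throughout. For 7 erythroid markers, none of them at 0 throughout, the sums were 109.8 to 170.6 in WT and 63.78 to 145.5 in HET, and 2 of 5 tested markers had the order. Summed markers of hair cells (12 genes, 216.0 to 273.0 in WT and 218.6 to 244.7 in HET), macrophages (9 genes, 37.3 to 46.0 and 33.2 to 43.8), brain (10 genes, 117.3 to 144.5 and 96.7 to 148.8, 1 of them at 0 throughout) and otic mesenchyme (9 genes, 2259.7 to 2671.1 and 2326.2 to 3017.7) had their highest sums in the same 2 libraries. Marker by marker, however, the order held for 2 of 12 tested hair cell, 5 of 8 macrophage, 2 of 3 brain and 2 of 9 mesenchyme markers, and single genes carry 2 of the sums: Otor (1830.72 to 2611.42 FPKM) that of mesenchyme and Sox10 (91.91 to 142.48) that of brain. The sum of 12 supporting cell markers was lowest in HET 1 and WT 3, at 3514.7 and 3736.2, against 3875.7 to 4188.8 in the other libraries, with Tectb alone at 1287.76 to 1906.53. Of its 12 genes 5 had these libraries lowest and 4 highest. Bone markers had them highest in 0 of 6 tested genes, and so did stria vascularis and melanocyte markers (0 of 6). The part of length, of cell makeup or of RNA quality in the pattern was not tested.

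Without HET 1, still no member passed limma's adjusted p (0 of 101, lowest 0.3908), as did 0.0% of genes. At an unadjusted p under 0.05, 20 members were lower in HET and 0 higher, where all genes had 7.34% lower and 4.76% higher. The median change became -0.13 for nuclear and -0.28 for mitochondrial members. HET 1 was left out after it was seen to be high in most members, so a lower HET mean follows from leaving it out. These counts are therefore no evidence of a genotype difference. Without WT 3 instead, 2 members were higher and 1 lower, beside 316 of 15137 genes at an unadjusted limma p under 0.05. The medians were then 0.08 nuclear and 0.09 mitochondrial. Without both libraries, 2 WT and 2 HET libraries remained, and again 0 members passed (lowest adjusted p = 0.1695). There, 22 members were lower and 3 higher at an unadjusted limma p under 0.05, beside 8.62% and 7.26% of all genes, and the medians were -0.04 nuclear and -0.15 mitochondrial. Both libraries were left out after their values were seen. On the leading principal component of all 6 libraries, WT 1 and 2 lay at -14 and -4.3 and HET 2 and 3 at -22.4 and -19.4. The counts without both libraries are therefore no evidence of a genotype difference either.

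The lower members included Cox8a, at 346.25 and 370.97 FPKM in WT 1 and 2 and 253.97 and 245.01 in HET 2 and 3 (change -0.52, limma adjusted p = 0.1695). Cox7c changed by -0.73, mt-Co3 by -0.41, Ndufa11 by -0.34 and Cox4i1 by -0.29. The 3 higher members were Ndufb6 (0.32), an accessory subunit of complex I that shares 39.0% of its exon bases with an overlapping gene, Cox7a2l (0.28), which helps to join complexes III and IV, and Ndufa13 (0.14). They are listed by their values, which were known when they were chosen. Other gene lists also had values that differed between the genotypes, none called. Without the 2 libraries, 3 of 5 tested bone markers (median change -0.34) and 3 of 6 stria vascularis and melanocyte markers (median -0.26) were lower at an unadjusted limma p under 0.05. With all libraries, 7 nuclear-retained or stress RNAs summed to 210.6 to 275.5 FPKM in WT and 308.4 to 314.3 in HET. Malat1 made up most of these sums, at 182.89 to 247.44 and 285.07 to 287.66. Of the 5 tested genes in this list, 1 change was positive and 4 were negative, with a median of -0.07. The part of these differences in the members' values was not tested.

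The mitochondrial to nuclear ratio varied little between libraries. Summed nuclear members came to 3842.5, 4085.9 and 4689.5 FPKM in WT and 5195.8, 3739.0 and 3601.0 in HET. Summed mitochondrial members came to 14358.9, 14734.3 and 18747.3 in WT and 20304.1, 12959.8 and 13468.4 in HET. Their ratio was 3.737, 3.606 and 3.998 in WT and 3.908, 3.466 and 3.740 in HET: 3.78 ± 0.20 against 3.71 ± 0.22 (mean ± SD, n = 3 each), a difference smaller than the spread within either group. The highest ratios were those of WT 3 and HET 1, although both classes were high there. As a share of all FPKM, mitochondrial members made up 4.75% to 6.49% and nuclear members 1.32% to 1.66%. With only mt-Nd1, mt-Nd2, mt-Nd5, mt-Nd6 and mt-Cytb, the genes with little or no shared sequence, the ratio to the nuclear sum was 2.47 ± 0.14 in WT and 2.39 ± 0.12 in HET (n = 3 each).

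**Figure D4:**
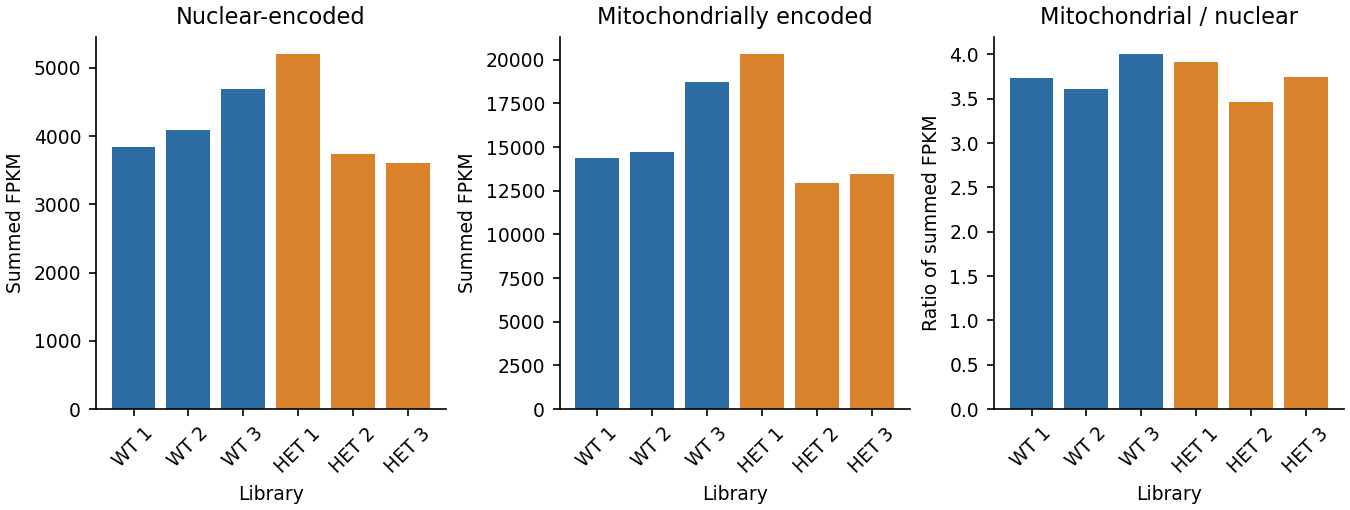
Summed FPKM of the 94 nuclear members (left), of the 13 mitochondrial members (middle) and the ratio of the sums (right), 1 bar per library. Both sums are highest in HET 1 and WT 3, while the ratio stays between 3.466 and 3.998.

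Other genes of mitochondrial function gave 0 calls each in HET against WT. The proteins that transcribe, copy and process mitochondrial DNA and RNA (33 tested genes) had a median change of 0.02, and the regulators of mitochondrial biogenesis (10 genes) 0.01. Of the biogenesis regulators only 1 of 10 had HET 1 and WT 3 highest, and of the mitochondrial DNA and RNA genes 14 of 33 (42.4%). The tricarboxylic acid cycle had it in 11 of 16 and glycolysis in 10 of 16, with median changes of -0.00 and -0.02. Assembly factors of complex IV had it in 10 of 19 genes and a median change of -0.04. These counts stand beside 31.4% of all genes tested.

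In HOM no member could be described. The HOM files list 1137 genes, and none of the 107 members is among them, while 7.35% of the 15391 genes tested in HET and WT are listed. The levels of the members in HOM were not analysed here.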

How the data were processed

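RNA-seq of cochleae was deposited as FPKM per gene and library, calculated by the authors and rounded to 2 decimals, per the file headers and values. The labels' protocols name poly(A) selection and rRNA removal as options and not which was used, which bears on mitochondrial RNA. The submitters' processing notes name DESeq2 and the build mm8; the sources used here name no aligner, counter or annotation. Gene identifiers were matched to GENCODE M21 (GRCm38): 51633 matched and 279 did not. All coordinates are those of GRCm38 annotation, not of mm8.

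Depth was recovered as whole-fragment steps of low values in genes of up to 600 exon bases: 99.3% to 99.6% of values came out whole within 0.1. HET and WT (3 libraries each, grouped by title) were compared on log2(FPKM + 1) with limma (version 3.58.1, R 4.3.3) and a mean-variance trend, over genes that reached 1 FPKM in 3 libraries or more. P-values are two-sided and Benjamini-Hochberg adjusted over all 15391 genes tested, with a threshold of 0.05. The script was tested on simulated data. The labels do not say that libraries came from separate animals, so p-values measure the spread between these samples, which may be technical. Sums, ratios and lists have no test. Exact 0 values may be failed estimates. Shared sequence was counted as exact stretches of 100 bases of protein-coding transcripts found in transcripts of another gene. Matches on either strand counted, also those with genes that overlap the member.

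Named were all 13 mitochondrial genes, in each complex the highest member and those with the largest rise and fall, Cycs, and 8 tissue-restricted isoforms; the highest nuclear member of each complex and the genes named for shared sequence or library order were added after their values were seen. The members, lists, tests and the 2 libraries set apart were chosen with earlier results of these data known. Both planned fits with HOM had no member to test. Alternatives were another pseudocount, no filter, no trend, median-ratio and upper-quartile scaling, a replicate block and left-out libraries.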

Additional observations from a re-analysis of the deposited data

How the results depend on the processing

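In HET against WT, limma called 0 members under every alternative run (pseudocount 0.1, no filter, no trend, both scalings, each library left out, and HET 1 with WT 3 left out), with 1 higher and 1 lower at an unadjusted p under 0.05 with all libraries. Over all genes the count of calls ranged from 0 to 1 when 1 library was left out, with 1 call without WT replicate 1, 1 without WT replicate 2 and 0 without each other library; the cause was not tested. The median change of mitochondrial members was 0.09 without WT replicate 3 and -0.28 without HET replicate 1, that of nuclear members 0.08 and -0.13, so their sign rests on single libraries. Of 377 values of the 29 named genes under alternatives, 334 kept the sign and 0 were called. Libraries with the same replicate number deviated together with r = -0.52, 0.29 and -0.47, so the numbers do not pair them; with the replicate block 0 members and 0 genes were called, and 173 genes in place of 266 had an unadjusted p under 0.05. Both HOM comparisons gave no value, since 0 members are listed there.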

Other observations

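Among other transcripts of the mitochondrial genome, 20 of 22 transfer RNA genes were listed at 0 in all 6 WT and HET libraries, while mt-Tp, the proline transfer RNA on the strand of mt-Nd6, was at 445.45, 453.92 and 493.32 FPKM in WT and 598.79, 392.76 and 405.12 in HET. The ribosomal RNA genes mt-Rnr1 and mt-Rnr2 were at 251.36 to 494.11 and 374.64 to 691.06 FPKM, below mt-Nd6 and mt-Cytb on their length-scaled values, and both were highest in HET 1 and WT 3. Among genes of the cytosolic ribosome, Rpl29 was at 98.09, 2.01 and 2.05 FPKM in WT and 114.56, 102.51 and 149.78 in HET, with WT replicate 1 close to the HET libraries and the other WT libraries far below; it was not called in limma.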
